A study of Glycine max with 18 samples.

Results

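AOX2 and AOX3 are a pair of soybean alternative oxidase genes, and each is read by 1 probe among the 66195 probes of the 66K Soybean GeneChip (AOX2 by probe 11926090, AOX3 by probe 11926083). They were picked out by their gene symbols in the platform annotation, and earlier results of these data were known when they were chosen. The array has 3 probes with an alternative oxidase symbol in all, and the remaining one, AOX1 (probe 11837267), is given for context. Roots of 14-d-old plants of 2 cultivars had been compared, drought-tolerant DT2008 and drought-sensitive Williams 82 (W82). Plants grown in well-watered vermiculite were lifted and left to dry on paper for 2 h (DT-D2, W-D2) or 10 h (DT-D10, W-D10), and plants collected at 0 h were the well-watered controls (DT-C, W-C). Each of the 6 groups had 3 biological replicates, which gave 18 arrays. No watered plants were collected at 2 or 10 h, so drying cannot be told apart from the hours after lifting, the change of place and light, or the time of day.

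Alternative oxidase is an enzyme of the inner mitochondrial membrane that passes electrons from ubiquinol straight to oxygen. It bypasses the proton-pumping complexes of the cytochrome pathway, so that respiration can go on with less ATP made, and it is known for keeping the electron carriers from becoming over-reduced, which limits the formation of active oxygen species when plants are stressed. Soybean has a small family of nuclear genes for it. In the RefSeq annotation (assembly Glycine_max_v4.0) AOX3 and AOX2 lie next to each other on chromosome 8 with no annotated gene between them, under the synonyms Aox2b and Aox2a, while AOX1 lies on chromosome 4. The 2 annotated genes on either side of the pair have no probe paired with them here. How far each probe tells the neighbouring copies apart was not tested, because the probe sequences were not used here.

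The deposited values are log2 values from which each probe's own median over the 18 arrays has been taken away. A value of 0 is therefore the middle level of that probe, 1 unit is a 2-fold difference, and levels of different genes cannot be set against each other. For the same reason the level of root markers cannot be read. The arrays read total root RNA, so fewer cells of a type cannot be told apart from less RNA per cell. Arrays of a group correlated with r between 0.369 and 0.721 in these centred values, and the medians of the arrays lay between -0.02 and 0.02. A probe was called upregulated or downregulated in a comparison when the adjusted p of limma over all probes was under 0.05 and the change was at least 2-fold.

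AOX2 was upregulated after 2 h of dehydration in both cultivars and after 10 h in W82, and AOX3 was upregulated in DT2008 after 2 h. The remaining changes of the 2 genes against their controls, AOX2 in DT-D10/DT-C and AOX3 in DT-D10/DT-C and in both W82 comparisons, were not called. AOX1 was called in no comparison.

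AOX2 read 0.43, 0.91 and 0.67 in DT-D2 roots, against -0.49, -1.30 and -1.38 in DT-C roots. The groups did not overlap, and the first DT-C array stood well above the other two. The change was 1.73 ± 0.24 (log2, SE of the fit), a 3.31-fold increase with an adjusted p of 6.17e-05. In W82, AOX2 read 0.02, 0.11 and 0.74 in W-D2 roots, against -0.79, -1.01 and -1.22 in W-C roots. All 3 dehydrated arrays were again above all 3 controls, with the third W-D2 array the highest of them. The change was 1.30 ± 0.24, or 2.46-fold (adjusted p = 0.00163). Upregulated probes were 2.89% of all probes in DT-D2/DT-C, where the AOX2 change was above that of 99.1% of probes. They were 1.83% of all probes in W-D2/W-C, where it was above that of 99.0%.

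After 10 h, AOX2 read 0.03, -0.37 and -0.02 in DT-D10 roots and thus lay above every DT-C array. The difference from DT-C was 0.94 ± 0.24, or 1.92-fold, which passed the adjusted p (0.0112) but not the 2-fold threshold. In W-D10 roots AOX2 read 0.22, -0.25 and 0.27, above every W-C array, and the change of 1.09 ± 0.24, or 2.12-fold, was called (adjusted p = 0.00337). The 2 values are close, and the test of the difference between cultivars gave -0.15 ± 0.33 (adjusted p = 0.915), so the call in W82 beside none in DT2008 does not show a difference between the cultivars. Upregulated probes were 2.75% of all probes in DT-D10/DT-C and 3.49% in W-D10/W-C.

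The AOX2 calls at 2 h held whichever array was left out, but those near the 2-fold threshold did not. In W-D10/W-C the change was 0.98 without W-C replicate 3 and 0.99 without W-D10 replicate 3, just under 2-fold, and in DT-D10/DT-C it was 1.22 without DT-C replicate 1 and 1.06 without DT-D10 replicate 2, both called. The adjusted p of that DT2008 difference was over 0.05 without DT-C replicate 2 (0.0573), DT-C replicate 3 (0.0590) or DT-D10 replicate 1 (0.0517). The t-test named in the methods, with Benjamini-Hochberg adjustment, called AOX2 in no comparison (adjusted p = 0.119 in DT-D2/DT-C, 0.0866 in W-D10/W-C and, at the early time, 0.122 in W-D2/W-C), and cyclic loess scaling ended the AOX2 calls in W82 (0.97 at 2 h and 0.62 at 10 h), as quantile normalization did that at 10 h (0.94). In DT2008 cyclic loess gave 1.17 at 2 h, still called, and 0.42 at 10 h, with an adjusted p of 0.261.

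**Figure D1:**
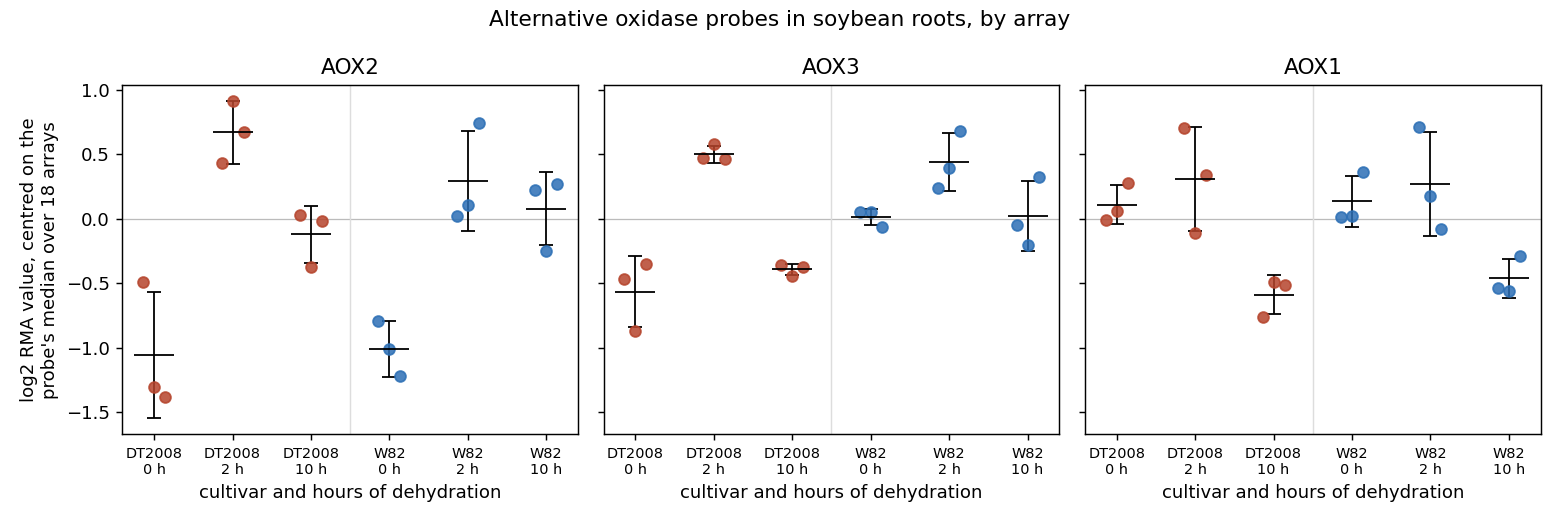
Centred log2 value of the AOX2, AOX3 and AOX1 probes (vertical axis) on each array, by cultivar and hours of dehydration; points are arrays, wide bars are means and whiskers are SDs of 3 arrays. Every AOX2 value of a dehydrated group is above every AOX2 value of its control, and AOX3 in DT2008 is above its control on all 3 arrays at 2 h but not at 10 h.

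AOX3 read 0.47, 0.58 and 0.46 in DT-D2 roots, against -0.47, -0.87 and -0.35 in DT-C roots. The 3 dehydrated arrays were close together and far above the controls, of which the second was the lowest. The change was 1.06 ± 0.16, or 2.09-fold (adjusted p = 0.000167). Without DT-C replicate 2 it was 0.91, under 2-fold, and the methods' t-test gave an adjusted p of 0.0946. In W82, AOX3 read 0.24, 0.39 and 0.68 in W-D2 roots, against 0.05, 0.05 and -0.06 in W-C roots. The groups did not overlap, but the difference of 0.42 ± 0.16 was not called (adjusted p = 0.128).

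At 10 h AOX3 was near its control level in both cultivars. It read -0.36, -0.44 and -0.37 in DT-D10 roots, within the range of the DT-C arrays, with a difference of 0.17 (95% confidence interval -0.16 to 0.51). In W-D10 roots it read -0.05, -0.20 and 0.32, on both sides of the W-C arrays, with a difference of 0.01 (-0.33 to 0.34). These intervals leave out a 2-fold change in either direction.

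Set directly against 2 h, the 10 h means of both genes were below the 2 h means in both cultivars, and no such difference was called. AOX3 in DT-D10/DT-D2 came nearest, at -0.89 ± 0.16 (1.85-fold lower, adjusted p = 0.00203), with all 3 DT-D10 arrays below all 3 DT-D2 arrays. AOX2 in the same comparison was at -0.79 ± 0.24 (1.73-fold lower, adjusted p = 0.0474), also with no overlap, and its adjusted p lay between 0.0219 and 0.195 with 1 array left out. In W-D10/W-D2 the differences were smaller, -0.42 ± 0.16 for AOX3 (adjusted p = 0.122) and -0.21 ± 0.24 for AOX2 (adjusted p = 0.685), and the arrays overlapped for both genes. Without W-D2 replicate 3 the AOX2 difference in W82 was 0.01. Probes called in either direction were 2.23% of all probes in DT-D10/DT-D2 and 2.44% in W-D10/W-D2. The difference between the cultivars in this early to late step was -0.58 ± 0.33 for AOX2 (adjusted p = 0.521) and -0.48 ± 0.23 for AOX3 (adjusted p = 0.404), and was called for neither, in a test that called 0.474% of probes.

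Between cultivars, no difference in AOX2 was called at any time. DT2008 minus W82 was -0.05 at 0 h (95% confidence interval -0.55 to 0.45), 0.38 at 2 h (-0.12 to 0.88) and -0.20 at 10 h (-0.69 to 0.30). For AOX3, each DT-C array was below each W-C array in well-watered roots. The difference in DT-C/W-C was -0.58 ± 0.16, or 1.50-fold, which passed the adjusted p (0.0230) but not the 2-fold threshold, and without DT-C replicate 2 it was -0.43 (adjusted p = 0.120). The adjusted p was also over 0.05 without W-C replicate 1 (0.0713) or 2 (0.0682), with only these 2 groups in the fit (0.0648) and by the methods' t-test (0.194). AOX3 differed by 0.06 in DT-D2/W-D2 (-0.27 to 0.40) and by -0.41 in DT-D10/W-D10 (-0.75 to -0.08, adjusted p = 0.170). Probes called in either direction were 3.5% in DT-C/W-C, 4.21% in DT-D2/W-D2 and 1.73% in DT-D10/W-D10.

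The 2 h response of AOX3 was larger in DT2008 by 0.64 ± 0.23, at an unadjusted p of 0.0109 in limma and an adjusted p of 0.252. The cultivars differed by -0.58 in the control values of AOX3 that enter this test and by 0.06 in its 2 h values. For AOX2 the 2 h response was larger in DT2008 by 0.43 ± 0.33 (adjusted p = 0.676), and for AOX3 the 10 h response by 0.17 ± 0.23 (adjusted p = 0.841). The interaction test called 0.42% of probes at 2 h and 0.394% at 10 h, neither gene among them.

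**Figure D2:**
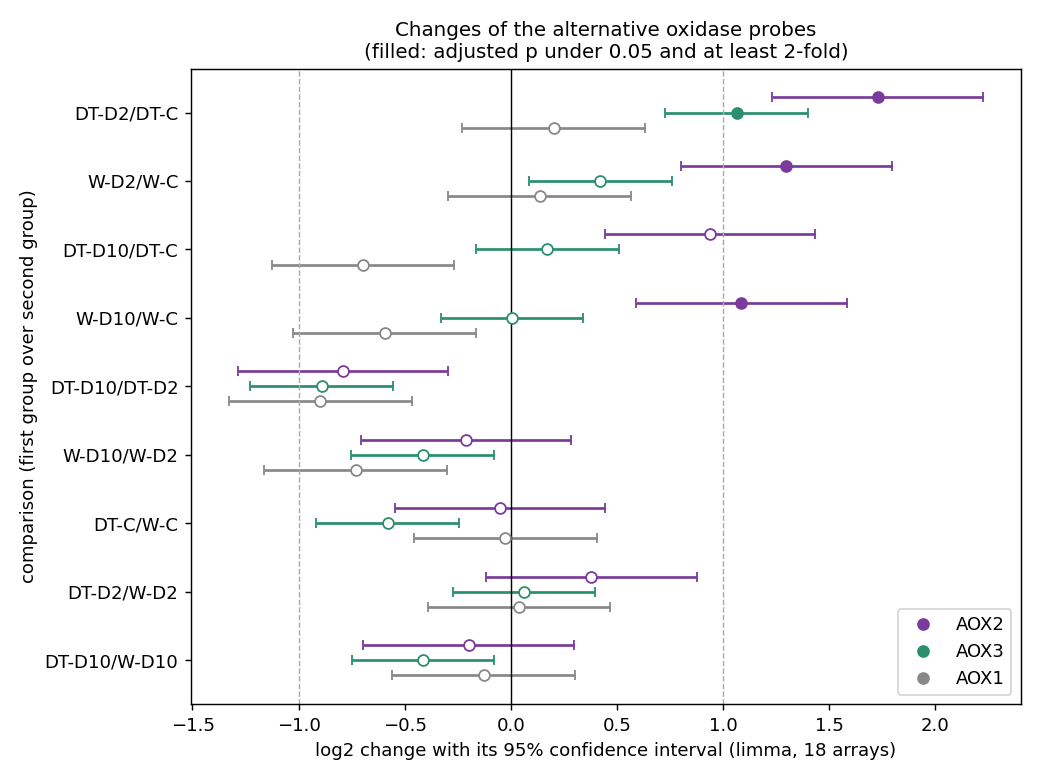
Log2 change of the AOX2, AOX3 and AOX1 probes (horizontal axis, with the 95% confidence interval of the fit) in 9 comparisons, the first group over the second; filled points are called, and dashed lines mark 2-fold. The 4 filled points are AOX3 in DT-D2/DT-C and AOX2 in DT-D2/DT-C and in both W82 comparisons with W-C.

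In the order of its group means from low to high, AOX2 stood at -1.06 ± 0.49 in DT-C, -1.01 ± 0.22 in W-C, -0.12 ± 0.22 in DT-D10, 0.08 ± 0.28 in W-D10, 0.29 ± 0.39 in W-D2 and 0.67 ± 0.24 in DT-D2 (SD, 3 arrays each). The one step between neighbours in this order without overlap was that of 0.89 between DT-D10 and W-C (adjusted p = 0.00995), which parts the dehydrated groups from the controls. AOX3 stood at -0.56 ± 0.28 in DT-C, -0.39 ± 0.04 in DT-D10, 0.02 ± 0.06 in W-C, 0.02 ± 0.27 in W-D10, 0.44 ± 0.23 in W-D2 and 0.50 ± 0.07 in DT-D2. None of the steps between its neighbours passed the adjusted p. The larger ones were 0.42 between W-D2 and W-D10 (adjusted p = 0.122) and 0.41 between W-C and DT-D10 (adjusted p = 0.0776), and the arrays of W-C and DT-D10 did not overlap. Both genes had their highest mean in DT-D2 and their lowest in DT-C. AOX2 varied more within groups (residual SD 0.322, above that of 84.8% of probes) than AOX3 (0.187, above that of 32.3%).

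In the values as deposited, the size of the response differed between the pair. AOX2 minus AOX3 on each array was -0.04, 0.34 and 0.22 in DT-D2 and 0.40, 0.07 and 0.35 in DT-D10, against -0.02, -0.43 and -1.03 in DT-C. It was -0.21, -0.28 and 0.05 in W-D2 and 0.27, -0.04 and -0.06 in W-D10, against -0.85, -1.06 and -1.17 in W-C. In W82 the dehydrated arrays were all above the controls, whereas in DT2008 the first DT-C array was within the range of DT-D2. Averaged over the cultivars, AOX2 responded more than AOX3 by 0.77 at 2 h and by 0.92 at 10 h. A two-sided exact permutation test of the arrays within each cultivar (400 arrangements) gave p = 0.01 at 2 h and p = 0.005 at 10 h, both 0.01 after Benjamini-Hochberg adjustment over the 2 tests. The difference at 2 h was 0.66 in DT2008 (exact p = 0.2) and 0.88 in W82 (exact p = 0.1), and at 10 h 0.77 in DT2008 and 1.08 in W82 (exact p = 0.1 in each), where 0.1 is the smallest p that 3 arrays against 3 allow. After cyclic loess scaling AOX2 and AOX3 changed by 1.17 and 1.08 in DT-D2/DT-C and by 0.97 and 0.45 in W-D2/W-C. At 10 h they changed by 0.42 and 0.19 in DT2008 and by 0.62 and 0.04 in W82. The 2 genes were thus closer than in the deposited values, and their difference was not tested under that scaling. All of these values compare 2 probes, which may follow a change in RNA with unequal gain, and this was not tested.

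**Figure D3:**
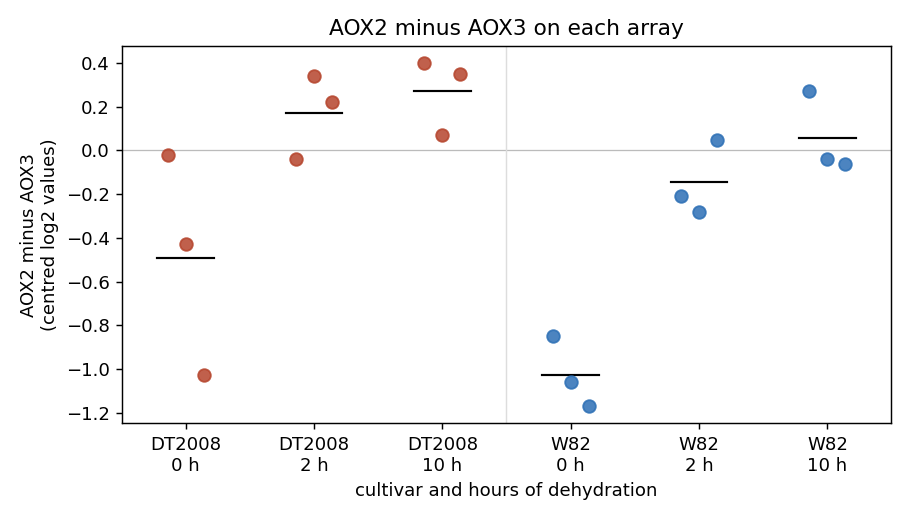
AOX2 minus AOX3 in centred log2 units (vertical axis) on each array, by cultivar and hours of dehydration; points are arrays and lines are means of 3 arrays. The dehydrated groups of W82 lie between -0.28 and 0.27 and its controls between -1.17 and -0.85.

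AOX1, which in other work on soybean is the member known for its response to stress treatments, read 0.70, -0.11 and 0.34 in DT-D2 roots and -0.76, -0.49 and -0.51 in DT-D10 roots, against -0.01, 0.06 and 0.28 in DT-C roots. In W82 it read 0.71, 0.18 and -0.08 in W-D2 roots and -0.54, -0.56 and -0.29 in W-D10 roots, against 0.01, 0.02 and 0.36 in W-C roots. The 2 h arrays overlapped the controls in both cultivars, and the 10 h arrays were all below them. At 2 h its differences were 0.20 in DT2008 and 0.14 in W82. At 10 h they were -0.70 in DT2008 (adjusted p = 0.0291) and -0.59 in W82 (adjusted p = 0.0566), neither 2-fold. From 2 to 10 h AOX1 differed by -0.90 in DT-D10/DT-D2 (adjusted p = 0.0104) and by -0.73 in W-D10/W-D2 (adjusted p = 0.0304), not 2-fold in either and close in size to the DT2008 steps of AOX2 and AOX3. The difference between AOX1 and the pair was not tested. Over the 18 arrays AOX2 correlated with AOX3 at Pearson's r = 0.708 and with AOX1 at -0.106, and AOX3 with AOX1 at 0.375. These are descriptions over arrays that share the same 6 groups, and 1748 probes followed AOX2 more closely than AOX3 did.

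The probes paired with 1 gene whose values ran closest to AOX2 over the 18 arrays were Glyma.10G253100, matched to the Arabidopsis receptor-like kinase CRK26 (r = 0.945), Glyma.05G059300, matched to a sugar transferase family (0.931), Glyma.11G203100, matched to a ubiquitin hydrolase family (0.927), Glyma.18G271400, matched to the receptor-like kinase ANX2 (0.924), and Glyma.19G148300, matched to a C1 domain protein (0.917). In DT-D2/DT-C these probes changed by 2.06 to 2.50 and AOX2 by 1.73. In DT-D10/DT-C their values were 1.01 to 1.68 beside 0.94 for AOX2. Closest to AOX3 were Glyma.08G133100 (r = 0.912), which has no Arabidopsis match in the tables used, Glyma.10G272000, matched to a glycosyltransferase family (0.909), the transcription factor gene WRKY5 (0.904), LOC100306214 (0.899) and Glyma.17G011800, matched to an F-box family (0.895). Their values in DT-D2/DT-C were 1.04 to 3.48, and in DT-D10/DT-C 0.14 to 1.04. All of these but WRKY5 and LOC100306214 are named through the study's tables, whose genes had been picked from the same arrays.

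**Figure D4:**
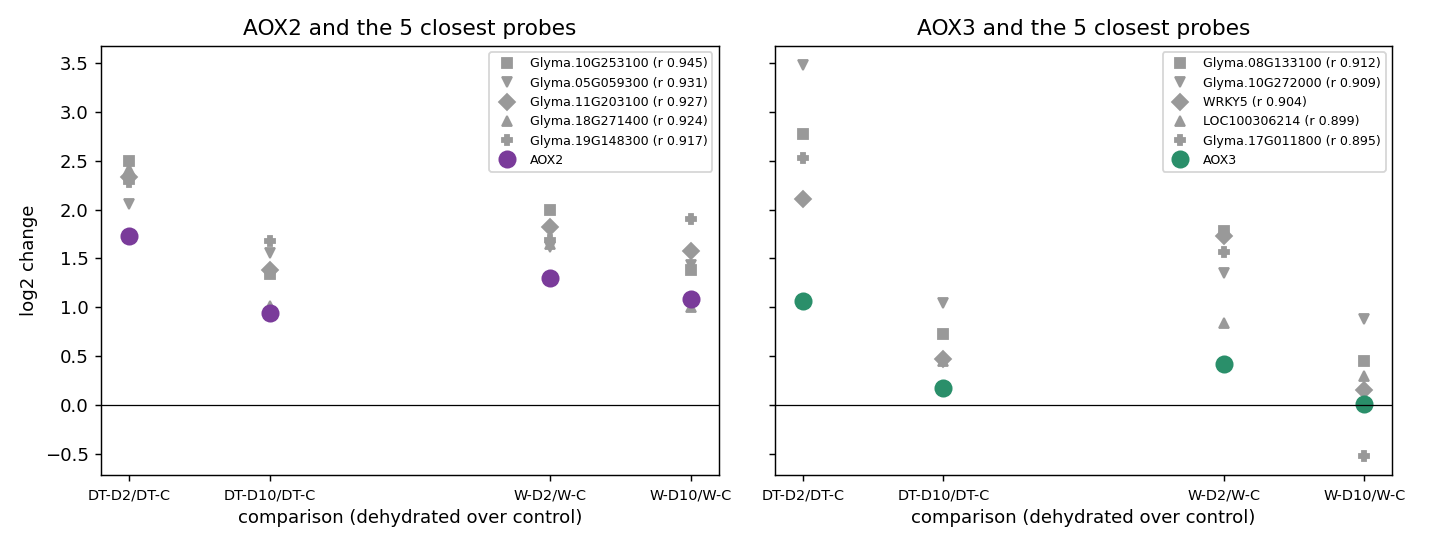
Log2 change (vertical axis) of AOX2 (left) and AOX3 (right) and of the 5 probes with the highest Pearson's r to each over 18 arrays, in the 4 comparisons of dehydrated with control roots. The AOX2 set is positive throughout, at 0.94 or more, and the AOX3 set lies lower at 10 h than at 2 h in both cultivars.

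Other genes of mitochondrial electron transport were sparsely represented among the named probes. Besides the 3 oxidases, the list of alternative electron transport held Glyma.01G024000, matched to the Arabidopsis mitochondrial carrier AT2G22500, known as UCP5 or DIC1, which carries dicarboxylates across the inner membrane. Its differences were 0.66 at 2 h and 0.41 at 10 h in DT2008, with 0.73 and 0.20 at those times in W82, and none was called. Those at 2 h passed the adjusted p (0.00409 in DT2008 and 0.00298 in W82) but not the 2-fold threshold. The 1 probe of the main respiratory chain was Glyma.03G195700, matched to a subunit of the ubiquinol-cytochrome c reductase. It had differences of -0.74 at 2 h and -0.26 at 10 h in DT2008 and of -0.33 and -0.34 in W82, and none was called. That of -0.74 passed the adjusted p (0.00111) but not the 2-fold threshold.

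Of the 4 probes on the list of alternative electron transport, AOX2 and AOX3 included, 2 were upregulated in DT-D2/DT-C, 1 in each W82 comparison with W-C and none in DT-D10/DT-C, where limma had 3 at an unadjusted p under 0.05. The called probes were AOX2 and AOX3 themselves, beside upregulated shares over all probes of 2.89% in DT-D2/DT-C, 2.75% in DT-D10/DT-C, 1.83% in W-D2/W-C, and 3.49% for the later W82 comparison.

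Pyruvate and organic acids feed the respiratory chain, and pyruvate also activates alternative oxidase. Of 18 probes on this list none was upregulated in the 4 comparisons with controls, and 2 were downregulated in DT-D2/DT-C, where 1.19% of all probes were. These were PEPC17 (-1.09, adjusted p = 0.000667) and PEPC7 (-1.11, adjusted p = 0.00452), genes for phosphoenolpyruvate carboxylase, which makes oxaloacetate. PPCK4, for a kinase that activates that enzyme, was downregulated in DT-D10/DT-C (-1.21, adjusted p = 9.1e-05), where 1.71% of all probes were. It was lower but under 2-fold in DT-D2/DT-C (-0.85, adjusted p = 0.0028), W-D2/W-C (-0.81, adjusted p = 0.00662) and W-D10/W-C (-0.95, adjusted p = 0.000806). The other PPCK probes were not called in DT-D10/DT-C. PPCK3 was at 0.99 (probe 11983249, adjusted p = 0.000138) and 0.10 (probe 11995621), PPCK2 at 0.65 and PPCK1 at -0.17. In W82 no member was called by limma, with 7 of 18 at an unadjusted p under 0.05 at each time. The median change of the list in DT-D2/DT-C was -0.19, beside -0.02 for all probes. The symbols PK3, PK6, PDH and PPCK are ambiguous or name regulators, and the 7 probes without them had a median of -0.55. The calls of PEPC17 and PEPC7 were lost without DT-D2 replicate 2 (-0.97 and -0.88) and under the methods' t-test (adjusted p = 0.180 and 0.280), that of PEPC17 without DT-C replicate 2 (-0.88) and that of PEPC7 without DT-C replicate 3 (-0.93).

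Of 18 probes for enzymes that remove active oxygen species, none was called by limma at 2 h in either cultivar, with 10 in DT2008 and 9 in W82 at an unadjusted p under 0.05. At 10 h CAT3, a catalase gene, was downregulated in DT-D10/DT-C (-1.06, adjusted p = 0.000146), though at -0.99 without DT-C replicate 2. In W82 at 10 h CAT3 was at -0.88, which passed the adjusted p (0.000715) but not the 2-fold threshold. In W-D10/W-C, Glyma.01G219400, matched to the Arabidopsis glutathione peroxidase GPX6, was upregulated (1.14, adjusted p = 0.00387). Its difference of 0.82 in DT-D10/DT-C passed the adjusted p (0.0365) but not the 2-fold threshold. This probe is on the list only through the study's tables, which include genes picked as changed on these same arrays. SODB2, a superoxide dismutase gene, was downregulated in W-D10/W-C (-1.44, adjusted p = 0.0133). This call was lost without W-C replicate 2 (adjusted p = 0.0848), without W-D10 replicate 2 (adjusted p = 0.0689) and under the methods' t-test (adjusted p = 0.218). Of all probes, 1.71% were downregulated and 2.75% upregulated in DT2008 at 10 h. For W82 at this time 1.66% were downregulated and 3.49% upregulated. The 2 h comparison of DT2008 had 1.19% downregulated and 2.89% upregulated, and that of W82 had 0.884% downregulated and 1.83% upregulated. The medians of the list lay between -0.31 and 0.01 in the 4 comparisons, beside -0.03 to -0.02 for all probes. Without 4 PRX probes, whose symbols may name cell wall peroxidases, the same 3 genes were called among 14 probes.

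Probes with a photosynthetic array symbol or Arabidopsis description were taken as markers of shoot tissue. Their mean moved with dehydration too, but 6 of the list's 8 probes came from the study's tables. Those tables include lists of genes picked as changed on these same arrays, so the mean and counts are not independent of that choice. The mean of 8 such probes was between 0.388 and 0.670 on the DT-D2 arrays and between -0.099 and 0.335 on the DT-D10 arrays, against -0.464 to -0.127 on the DT-C arrays. It was between -0.345 and -0.065 on the W-D2 arrays and between -0.235 and 0.182 on the W-D10 arrays, against -0.519 to -0.410 on the W-C arrays. Like AOX2 and AOX3 the list was highest in DT-D2. In DT2008 3 of the 8 probes were upregulated at 2 h and 2 at 10 h, and in W82 2 at 2 h and 3 at 10 h, where 1 was downregulated. Glyma.02G106000 was among the upregulated probes each time (1.43 to 2.01). Like Glyma.01G045700 it entered the list only through the description of its match, AT1G69680. Whether these 2 probes mark shoot tissue was not tested. The upregulated shares over all probes were 2.89% at 2 h and 2.75% at 10 h in DT2008, with 1.83% at 2 h, 3.49% at 10 h and 1.66% downregulated at 10 h in W82. In DT-D2/DT-C CAB3 and PSAD, the 2 named by array symbol, were at -0.12 and 0.12, and the other 6 come from the study's tables. At 10 h CAB3 was at -0.90 in DT2008 (adjusted p = 0.00678) and -0.52 in W82, and PSAD at -0.53 and -0.43. In W-D2/W-C CAB3 was at -0.07 and PSAD at 0.27. The mean of the 14 nodule marker probes with an array symbol lay between -0.255 and 0.131 over all arrays, but its members moved apart. Among these 14, ENOD55-2, an early nodulin gene, was upregulated by 4.05 at 2 h and 3.67 at 10 h in DT2008 and by 2.90 and 3.55 at those times in W82, and ENOD93 was downregulated in W82 (-1.71 at 2 h and -2.49 at 10 h). The whole list of 25 probes adds members matched through nodulin names in Arabidopsis descriptions, which may not mark nodules. These added members also came from the study's tables, with their lists of genes picked as changed on these arrays. Counts on the whole list are therefore not on a like footing with the shares over all probes. On the whole list 2 were upregulated and 4 downregulated in DT2008 at 2 h. At 10 h it had 3 upregulated and 5 downregulated probes in that cultivar, while in W82 it had 1 of each kind at 2 h and 2 of each at 10 h. None of the 14 probes with an array symbol was downregulated in DT2008. Downregulated shares over all probes were 1.19% at 2 h and 1.71% at 10 h in DT2008, and 0.884% at 2 h in W82. The part of either list in the oxidase values was not tested.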

How the data were processed

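The 18 arrays of total root RNA came from 6 groups of 3, taken from the labels. The authors deposited log2 values, made with RMA in Affymetrix Expression Console per the submitters' processing notes (versions not given in the sources used here), with GeneSpring named in the methods for later steps; each probe is centred on its median over the 18 arrays. Arrays, not reads, limit the precision. No new scaling was applied. Group means were fitted with limma 3.58.1 in R 4.3.3 (lmFit, contrasts.fit, eBayes; 12 residual and 6.28 prior degrees of freedom), and p-values were adjusted by Benjamini-Hochberg over 66195 probes; the fit was tested on simulated data. Of these probes 3059 have exactly 1 array symbol, 47 have several, and 5830 are paired with 1 gene when the supplementary tables are added. Named are the oxidase probes, the 5 one-gene probes with the highest Pearson's r to each member, and up to 4 called members per list with the lowest adjusted p. Members and lists were chosen with earlier results of these data known. Alternatives were the methods' t-test, other scalings, weights, sample sets, a replicate block and leaving out each array. Protein, promoter and probe sequences were not used here.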

Additional observations from a re-analysis of the deposited data

How the results depend on the processing

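Of 240 alternatives run on the results for AOX2, AOX3 and their difference, 228 kept the call or its absence, 8 lost a call and 4 gained one. Of 456 fits with 1 array left out, 451 kept it, and none of either kind turned the direction of a called change. Most of these results were differences not called to begin with. Over 10 alternatives each, the AOX2 call was kept in 9 for DT-D2/DT-C, 8 for W-D2/W-C and 7 for W-D10/W-C. That of AOX3 in DT-D2/DT-C was kept in 9 of 10. With the methods' t-test the adjusted p of AOX2 was 0.119 for its change of 1.73 in DT-D2/DT-C, 0.0866 for 1.09 in W-D10/W-C and, at 2 h, 0.122 for 1.30 in W-D2/W-C, and that of AOX3 was 0.0946 for 1.06 in DT-D2/DT-C, so no call was left. At an unadjusted p under 0.05 that test had AOX2 past the 2-fold threshold in these 3 comparisons and AOX3 in DT-D2/DT-C. Quantile normalization put AOX2 in W-D10/W-C at 0.94, under 2-fold. Cyclic loess put AOX2 in W82 at 0.97 at 2 h and 0.62 at 10 h, and AOX3 in DT-D2/DT-C at 1.08. The centred values hold no brightness for its curve to run over, and how far this sets these changes was not tested. Without a fold threshold 4 further changes passed, AOX2 at 0.94 in DT-D10/DT-C and -0.79 in DT-D10/DT-D2, and AOX3 at -0.89 in DT-D10/DT-D2 and -0.58 in DT-C/W-C. With 1 array left out, AOX2 at 10 h lay between 0.78 and 1.22 in DT2008 and between 0.98 and 1.25 in W82, and AOX3 ranged from 0.91 to 1.17 in DT-D2/DT-C. Replicate numbers did not pair the arrays. Over 45 pairs with the same number, deviations from the group means correlated between -0.175 and 0.187, and 3 of 18 arrays were closest to their own number. With the replicate block the difference between AOX2 and AOX3 at 2 h was 0.77 at an exact p of 0.0625, where the test without it gave 0.01; it changed no other call. For AOX1 and the list members named, alternatives added after seeing the data lost 10 calls and gained 4 of 501. Calls over all probes in the 9 comparisons of groups were 1143 to 3407, against 28 to 1189 by the methods' t-test after adjustment (1152 to 3236 before it), 3285 to 10521 without a fold threshold and 303 to 1047 over the probes paired with 1 gene. The 3 interactions called 261 to 314 probes, against 141 to 175 with a variance trend and robust fit, 386 to 951 with array weights and 195 to 586 after quantile normalization. The upregulated share of calls after cyclic loess was 57.3% in DT-D2/DT-C, 56.4% in W-D2/W-C, 54.5% in the interaction at 2 h and 54.7% in that from 2 to 10 h, where the values as deposited gave 70.9%, 67.4%, 68.3% and 38.5%.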
